A study of Canis lupus familiaris with 4 samples.

Results

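The genes described here are those of cholesterol synthesis, of sterol transport and of the control of SREBP (sterol regulatory element binding protein), in MDCKII cells, an established epithelial line from dog kidney. They were chosen by name: 28 genes were listed, and every probe set that the platform annotation assigns to a single one of these symbols was taken. This gave 56 probe sets for 27 of the 28 genes, out of 42924 probe sets and 15115 genes in the whole series. IDI1, which isomerises the isoprenoid unit, was not analysed here. MVK and LSS were below the floor for dim genes on every array, so 25 of the 28 genes were tested, and each of these reached the floor on all 4 arrays. The levels of LSS, which closes the ring of lanosterol, lay between 32.3 and 45.6, and those of the brightest probe set of MVK, the mevalonate kinase, between 21.4 and 33.3.

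Each of the 4 arrays carries RNA from a different condition. Cells labelled WT or KD for HIF1A were held in normoxia for 24 h and then for a further 24 h in either normoxia or hypoxia. The groups are therefore WT and KD cells in normoxia and WT and KD cells in hypoxia, each with 1 array and no replicate. HIF1A is the oxygen-regulated subunit of the hypoxia-inducible transcription factor. The sources used here do not give how the knockdown was made, whether the KD cells are a single clone, or the oxygen level. All groups share the cell line, and RNA was taken from the whole culture, so fewer cells with a transcript and less transcript per cell cannot be told apart.

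Cholesterol is built from acetyl-CoA through mevalonate, isoprenoid diphosphates, squalene and lanosterol, and several of the enzymes consume molecular oxygen. When sterols are scarce in the endoplasmic reticulum, SCAP escorts SREBP to the Golgi, where the proteases MBTPS1 and MBTPS2 release its active part, which turns on most genes of the pathway. When sterols are plentiful, INSIG1 and INSIG2 hold SCAP and SREBP back. Kidney epithelial cells make cholesterol and also take it up, and in MDCK cells it is enriched in the apical membrane.

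Over the whole series, the median intensity per array lay between 45.6 and 47.1. HIF1A mRNA read 3651 (WT) and 3435 (KD) in normoxia and 675 (WT) and 625 (KD) in hypoxia, so its level did not separate the KD from the WT label. Directions below are those of the labels. Of 8 kidney epithelial markers with a probe set, 7 were above the floor on all 4 arrays. CDH1, which defines epithelial cells, was below it on every array, at 17.8 to 41.2. TJP1, a tight junction protein, rose by 0.31 in the genotype term and fell by 0.26 in the oxygen term defined below, and EPCAM, an adhesion molecule, rose by 0.23 in the oxygen term. None of 6 fibroblast markers reached the floor, with summed intensities of 70.9 to 79.9. Of 4 endothelial markers, 2 reached it (sums from 194 to 268), and of 4 leukocyte markers, 2 did (sums from 266 to 337). Their part in the results was not tested.

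The 4 intensities of a gene are given below in a fixed order, first WT and KD in normoxia, then WT and KD in hypoxia. Differences are in log2(intensity + 16), which understates the change of dim genes. A gene with several probe sets is represented by its brightest. The genotype term is the mean of the KD minus WT differences in normoxia and in hypoxia, and the oxygen term is the mean of the hypoxia minus normoxia differences in WT and in KD cells. Both come from 1 additive limma model over the 4 arrays, with two-sided p-values adjusted by Benjamini-Hochberg over 9834 genes. A gene is written as having risen or fallen when its adjusted p was under 0.05. With 1 residual degree of freedom, these p-values rest on a variance shared between genes of like intensity, and they do not measure the spread between cultures.

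In the arrays labelled KD, most of the cholesterol synthesis enzymes were higher than in the arrays labelled WT. In normoxia 13 of the 16 tested were higher (48.35% of all genes tested), and in hypoxia 14 of 16 (47.94% of all genes tested). Their median differences were 0.31 and 0.33 (all genes tested, -0.01 in both). Of the 25 tested genes, 10 rose in the genotype term (2.94% of all genes tested did) and 1, LBR, fell (2.43% of all genes tested). The genes that rose were HMGCS1, FDPS, FDFT1, SQLE, TM7SF2, MSMO1, EBP, INSIG1, INSIG2 and STARD4. The increases were modest, between 1.20-fold for SQLE and 1.53-fold for TM7SF2. In the oxygen term 4 genes fell, TM7SF2, INSIG2, EBP and SQLE (4.17% of all genes tested fell), and 2 rose, MBTPS1 and SCAP (4.72% of all genes tested rose). All 11 calls of the genotype term and all 6 of the oxygen term were lost when the variance prior of limma had no intensity trend. They were also lost when dim genes were kept. The 25 genes had a median intensity of 989 in WT normoxia, against 263 over all genes tested. Bright genes had smaller SEs in the genotype term (0.05 for HMGCS1, 0.15 for the dim DHCR7). The shares over all genes given here are not matched for intensity.

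**Figure D1:**
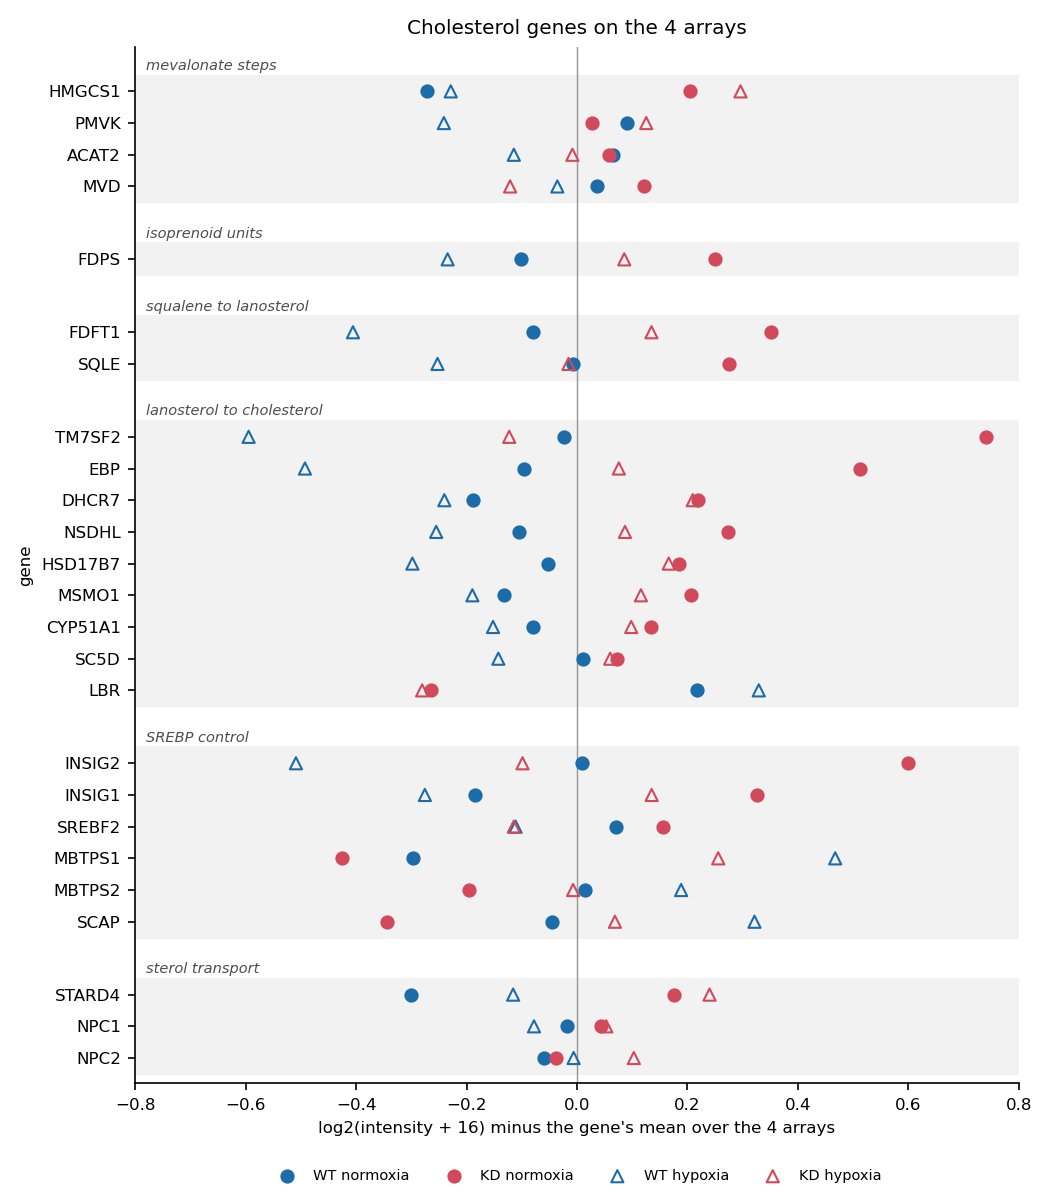
Level of each of the 25 tested genes on the 4 arrays, as log2(intensity + 16) minus the gene's own mean over the arrays (horizontal axis), with genes grouped by step. Filled circles are normoxia and open triangles hypoxia, blue is labelled WT and red labelled KD, and each symbol is 1 array. Most synthesis enzymes have both red symbols to the right of both blue ones, LBR has them to the left, and TM7SF2 and INSIG2 spread the widest among the genes that fell with labelled hypoxia.

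Among the first enzymes of the pathway, HMGCS1 stood apart. HMGCS1 makes HMG-CoA, the substrate from which mevalonate is formed. Its intensities were 5862, 8165, 6042 and 8700. Both arrays labelled KD were above both labelled WT, while hypoxia and normoxia differed by 0.04 in WT and 0.09 in KD cells. The genotype term was 0.50 (SE 0.05, adjusted p = 0.0017 by limma), a 1.42-fold increase, and the oxygen term was 0.07 (adjusted p = 0.466).

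The other mevalonate genes were not called in either term. ACAT2, the cytosolic thiolase that supplies acetoacetyl-CoA, read 3489, 3467, 3076 and 3312, with a genotype term of 0.05 (SE 0.07). PMVK, which phosphorylates phosphomevalonate, read 1241, 1187, 984 and 1273. Its lowest value was in the array labelled WT hypoxia, and the other 3 arrays lay close together. MVD, which makes isopentenyl diphosphate, read 277, 295, 263 and 247, and its genotype term was 0.00 (SE 0.11). In this group of steps 1 of 4 tested genes, HMGCS1, rose in the genotype term (2.94% of all genes tested).

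The enzymes that assemble farnesyl units into squalene were called together. FDPS, which makes farnesyl diphosphate for sterols and for protein prenylation, read 3464, 4423, 3156 and 3944. FDFT1, squalene synthase and the first enzyme committed to sterols, read 1747, 2362, 1391 and 2030. In both genes the 2 arrays labelled KD were above the 2 labelled WT. The genotype term was 0.34 for FDPS (SE 0.06, adjusted p = 0.017) and 0.49 for FDFT1 (SE 0.08, adjusted p = 0.010).

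SQLE, squalene epoxidase, carries out the first step of the pathway that uses oxygen and is a control point of its flux. It read 7856, 9564, 6625 and 7813, highest in KD normoxia and lowest in WT hypoxia. The levels in WT normoxia and KD hypoxia were nearly equal, so genotype and oxygen labels gave differences of like size in opposite directions. SQLE rose by 0.26 in the genotype term (SE 0.05, adjusted p = 0.019) and fell by 0.27 in the oxygen term (SE 0.05, adjusted p = 0.0092). FDFT1 was also lower with labelled hypoxia in both pairs, by -0.33 in WT and -0.22 in KD cells, but missed the threshold (adjusted p = 0.058).

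From lanosterol to cholesterol, 8 of the 9 genes were higher in both KD minus WT pairs and 1, LBR, was lower. Of all genes tested, 48.35% were higher in the normoxia pair and 47.94% in the hypoxia pair. Of these 9 tested genes, 3 rose in the genotype term (2.94% of all genes tested) and 1 fell (2.43% of all genes tested). TM7SF2 and LBR are both sterol reductases that act on the double bond left by CYP51A1, and they moved in opposite directions. TM7SF2, which acts mainly in the endoplasmic reticulum, read 728, 1248, 485 and 679. LBR, which also anchors lamin B and chromatin at the inner nuclear membrane, read 1712, 1221, 1852 and 1208.

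TM7SF2 had the largest genotype term among the 25 tested genes, 0.62 (SE 0.10, adjusted p = 0.013), and ranked 170th from the top of 9834 genes. It also fell by 0.72 in the oxygen term (SE 0.10, adjusted p = 0.0028), the largest decrease of the 25, at rank 126 from the bottom. Its level in KD hypoxia was below that in WT normoxia, so the arrays did not separate by genotype label alone. For LBR both arrays labelled KD were below both labelled WT. LBR fell by 0.55 in the genotype term (SE 0.08, adjusted p = 0.0085), at rank 183 from the bottom, and its oxygen term was 0.05 (adjusted p = 0.769).

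EBP, the sterol isomerase that follows, read 1943, 2968, 1471 and 2189. It was highest in KD normoxia and lowest in WT hypoxia, and both KD arrays were above both WT arrays. EBP rose by 0.59 in the genotype term (SE 0.07, adjusted p = 0.0043) and fell by 0.42 in the oxygen term (SE 0.07, adjusted p = 0.0074). MSMO1, the oxygen-using enzyme that removes methyl groups from the sterol ring, read 6463, 8184, 6213 and 7681. MSMO1 rose by 0.32 in the genotype term (SE 0.05, adjusted p = 0.0095), with an oxygen term of -0.07 (adjusted p = 0.416).

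The remaining genes of these last steps had positive genotype terms that were not called. CYP51A1, the demethylase of lanosterol, read 3951, 4588, 3758 and 4474 in its brightest probe set (term 0.23, SE 0.06, adjusted p = 0.054). NSDHL, a sterol dehydrogenase that works with MSMO1, read 480, 629, 431 and 551 (0.36, SE 0.10, adjusted p = 0.061). These are the values nearest to the threshold on its other side.

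HSD17B7, the reductase that completes removal of the methyl groups, read 222, 265, 185 and 261 (0.35, SE 0.12, adjusted p = 0.117). DHCR7, which makes cholesterol in the last step, read 75.2, 105, 72.0 and 104 (0.43, SE 0.15, adjusted p = 0.144). In both genes the KD arrays were above the WT arrays, and DHCR7 had the largest SE of the 25. SC5D, the oxygen-using desaturase before DHCR7, read 522, 546, 468 and 541 (0.13, SE 0.10, adjusted p = 0.465).

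The 4 oxygen-using enzymes SQLE, CYP51A1, MSMO1 and SC5D were each higher in both KD minus WT pairs and lower in both hypoxia minus normoxia pairs in the probe set that stands for the gene. Of all genes tested, 48.35% and 47.94% were higher in the KD minus WT pairs. In the hypoxia minus normoxia pairs 4683 and 4672 of all 9834 were lower. The second SC5D probe set went the opposite way in all 4 pairs, with mean differences of -0.06 for genotype and 0.11 for oxygen, and the median over both turned the sign of the SC5D oxygen term (0.013). In the genotype term 2 of the 4 rose, SQLE and MSMO1 (2.94% of all genes tested), and in the oxygen term 1 of the 4 fell, SQLE (4.17% of all genes tested). Their oxygen terms ran from -0.27 for SQLE to -0.05 for CYP51A1. Among the tested genes of synthesis, transport and SREBP control, the oxygen term was lowest in TM7SF2 (-0.72), INSIG2 (-0.61) and EBP (-0.42). These are not among the 4 oxygen-using enzymes. Whether the use of oxygen by an enzyme bears on its mRNA level was not tested.

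**Figure D2:**
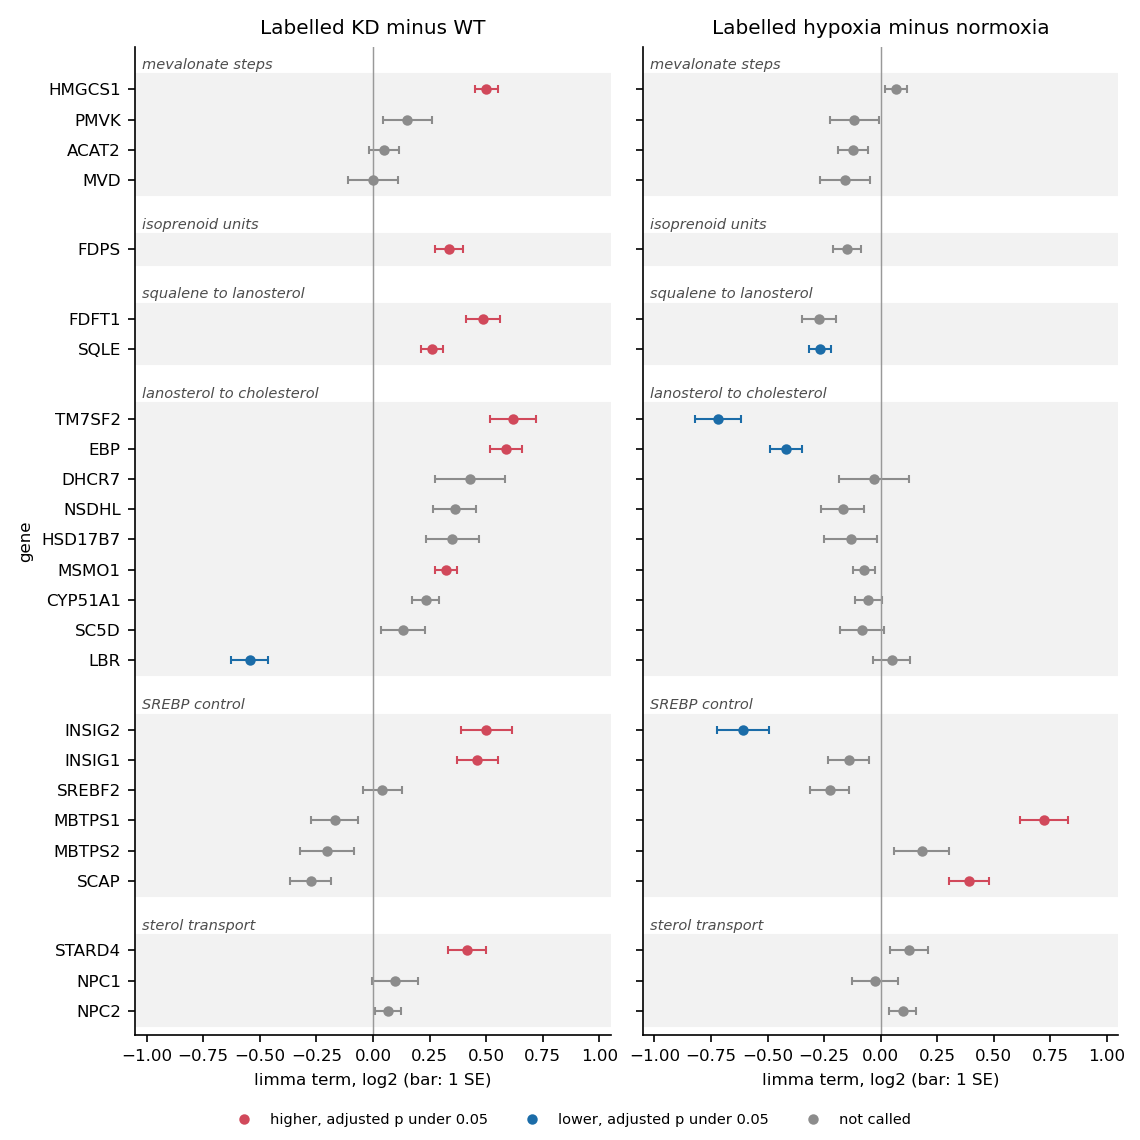
Genotype term (left) and oxygen term (right) of the additive limma model for the 25 tested genes, on the log2 scale with bars of 1 SE, grouped by step. Red is higher and blue lower at an adjusted p under 0.05, and grey is not called. The left panel has 10 red genes and 1 blue, LBR, and the right panel has 4 blue genes, SQLE, TM7SF2, EBP and INSIG2, and 2 red, MBTPS1 and SCAP.

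The genes that control SREBP did not move as a block. SREBF2, which encodes SREBP2, the main activator of the pathway, read 1003, 1065, 882 and 880. Its genotype term was 0.04 (SE 0.09, adjusted p = 0.824), and its oxygen term was -0.23 (SE 0.09, adjusted p = 0.150). The activity of SREBP2 is set mostly by release of the protein, which arrays do not measure.

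INSIG1 and INSIG2, the retention factors, both rose with the KD label. INSIG1, itself a target of SREBP, read 677, 971, 635 and 849, with both KD arrays above both WT arrays. INSIG2 read 237, 366, 161 and 219, with its level in KD hypoxia below that in WT normoxia. The genotype term was 0.46 for INSIG1 (SE 0.09, adjusted p = 0.023) and 0.50 for INSIG2 (SE 0.11, adjusted p = 0.040).

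With labelled hypoxia INSIG2 fell by 0.61 (SE 0.11, adjusted p = 0.011), while INSIG1 was at -0.14 (SE 0.09, adjusted p = 0.400). The difference between the responses of the 2 genes was not tested. The genotype call of INSIG2 ended with a stricter floor, at the 75th percentile of values or on all 4 arrays, and that of INSIG1 when the median over its probe sets was used.

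Of SCAP and the proteases, none was called in the genotype term, and SCAP and MBTPS1 rose in the oxygen term. SCAP, the escort of SREBP, read 738, 598, 957 and 801, lower with the KD label in both pairs and higher with labelled hypoxia in both pairs. It rose by 0.39 in the oxygen term (SE 0.09, adjusted p = 0.029). For genotype the term of SCAP was -0.28 (SE 0.09, adjusted p = 0.112). MBTPS1, which makes the first cut in SREBP, read 235, 213, 410 and 352.

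MBTPS1 rose by 0.72 in the oxygen term (SE 0.11, adjusted p = 0.0031), the largest increase of the 25. Its genotype term was -0.17 (SE 0.11). MBTPS2, which makes the second cut, read 167, 142, 190 and 164, with an oxygen term of 0.18 (SE 0.12, adjusted p = 0.413). The hypoxia calls of SCAP and MBTPS1 each rest on 1 of 2 probe sets of the gene. The second MBTPS1 probe set read 87.8, 100, 61.9 and 87.8 (oxygen term -0.29), and that of SCAP read 111, 93.8, 86.9 and 95.6 (oxygen term -0.14), both opposite in sign to the brighter ones. With the median over probe sets neither gene was called for oxygen (0.22 for MBTPS1, 0.12 for SCAP).

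Of the transport genes, STARD4, a soluble carrier that moves sterol between membranes, read 989, 1383, 1127 and 1446. Both KD arrays were above both WT arrays, and STARD4 rose by 0.42 in the genotype term (SE 0.08, adjusted p = 0.024). With the median over its 4 probe sets the term was 0.29 and was not called (adjusted p = 0.112). It was also higher in both hypoxia pairs, by 0.18 in WT and 0.06 in KD cells (adjusted p = 0.419). The genes of sterol export from lysosomes were not called. NPC1, the membrane protein of that step, read 367, 383, 351 and 386, and its soluble partner NPC2 read 4456, 4523, 4623 and 4987, with genotype terms of 0.10 (SE 0.10) and 0.07 (SE 0.06).

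Taking the pairs of arrays separately, 19 of the 25 tested genes were higher and 6 lower for labelled KD minus WT in normoxia, and the same counts held in hypoxia. Of all genes tested, 48.35% were higher in normoxia and 47.94% in hypoxia. The median difference was 0.24 in normoxia and 0.31 in hypoxia, against -0.01 in both pairs over all genes tested. Higher by at least 0.322 in both pairs, the fold threshold used here on the log2 scale, were 9 of the 25 (4.3% of all genes tested), namely HMGCS1, FDFT1, TM7SF2, NSDHL, EBP, DHCR7, INSIG1, INSIG2 and STARD4. LBR alone was lower by at least 0.322 in both (4.28% of all genes tested). Both KD arrays lay above both WT arrays for 13 of the 25 (19% of all genes tested), and below them for LBR and MBTPS2 (22.2% of all genes tested).

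For labelled hypoxia minus normoxia, 18 of the 25 were lower in WT cells and 17 in KD cells (4683 and 4672 of all 9834 genes tested). The medians were -0.09 and -0.04, against 0.01 and 0.02 over all genes tested. TM7SF2, EBP and INSIG2 were lower by at least 0.322 in both pairs (4.58% of all genes tested), and MBTPS1 and SCAP higher by at least 0.322 in both (4.88% of all genes tested). Both hypoxia arrays lay below both normoxia arrays for 6 genes, ACAT2, MVD, SQLE, TM7SF2, INSIG2 and SREBF2 (19.3% of all genes tested), and above them for SCAP, NPC2 and MBTPS1 (22.8% of all genes tested). For separation by oxygen label the share below, 6 of 25, was near that of all genes. The share above, 3 of 25, was lower than that of all genes, which was not tested. No member differed 2-fold or more in any of the 4 pairs, whereas 3.38% of all genes tested did so in at least 1 of them.

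**Figure D3:**
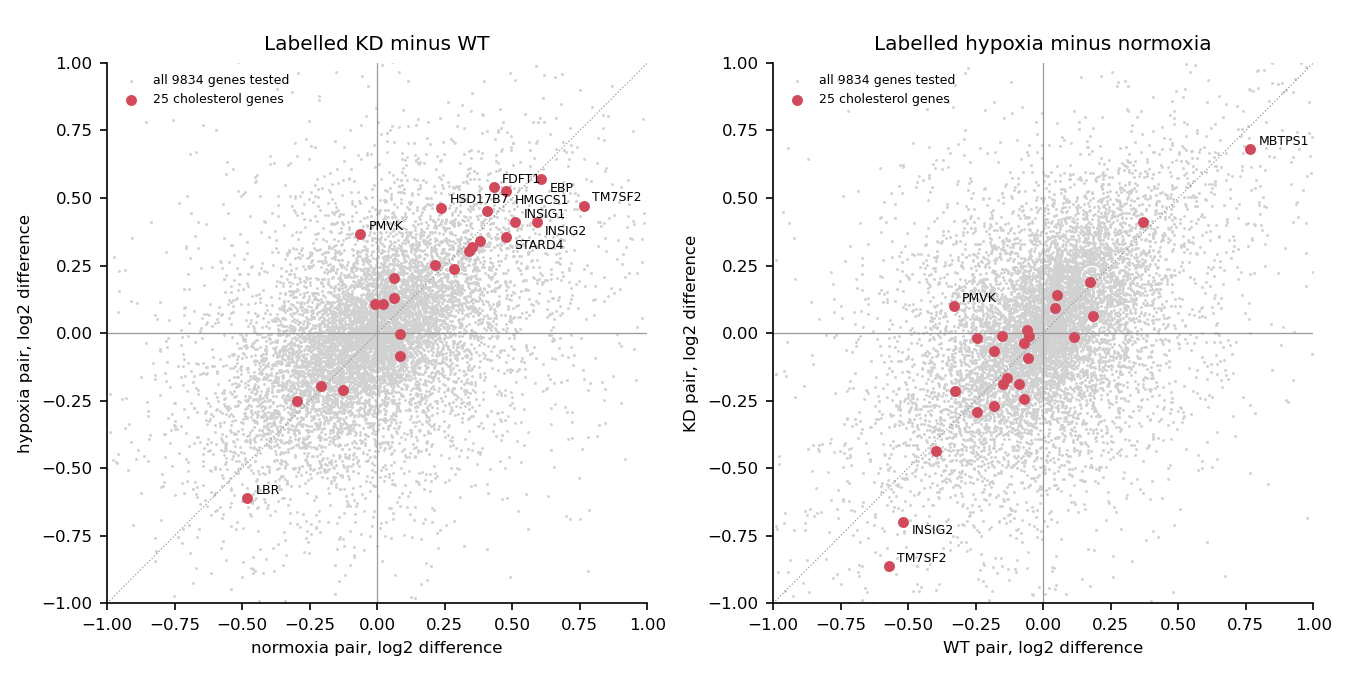
Differences of the 25 tested genes (red) and of all 9834 genes tested (grey) in log2 units. The left panel sets labelled KD minus WT in normoxia against the same in hypoxia, the right panel labelled hypoxia minus normoxia in WT against KD cells, the dotted line marks equal values, and genes beyond 1 in either direction are not drawn. On the left most red points lie in the upper right near the dotted line with LBR at the lower left, and on the right TM7SF2 and INSIG2 lie at the lower left and MBTPS1 at the upper right, while PMVK is off the line in both.

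The 2 KD minus WT pairs share no array, and neither do the 2 hypoxia minus normoxia pairs. Over the 25 genes, the KD minus WT differences in normoxia and in hypoxia correlated with Pearson's r = 0.88 and Spearman's rho = 0.85, where all genes tested gave 0.43 and 0.43. The hypoxia minus normoxia differences in WT and KD cells correlated with r = 0.88 and rho = 0.76, where all genes gave 0.52 and 0.43. These are descriptions across genes, which share arrays and are not independent. All genes tested are not matched to the 25 in intensity. PMVK alone of the 25 had a hypoxia minus normoxia difference that was at least 0.322 apart in WT and KD cells (24% of all genes tested did). PMVK was at -0.33 in WT and 0.10 in KD cells, a difference with no replicate check. The WT minus KD difference of these responses was -0.43 in this probe set, -0.35 in the second and 0.02 in the third.

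Across both labels, KD normoxia was the highest array for 15 of the 25 genes and WT hypoxia the lowest for 16. Over all genes tested these shares were 26.4% and 23.8%. If the arrays labelled KD normoxia and WT hypoxia had been exchanged, the genotype and oxygen terms would trade their values with each other, with signs unchanged. HIF1A mRNA, lower in both arrays labelled hypoxia, would then be lower in both arrays labelled KD and not separate by oxygen label. Whether the labels were exchanged was not tested. Under that exchange the decrease of TM7SF2, EBP, INSIG2 and SQLE would belong to the genotype label and their increase to the oxygen label.

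Several genes were read by more than 1 probe set, which gave a check of each value on the same RNA. Of the 56 probe sets, 49 reached the floor, and 17 genes had at least 2 of these. In 12 of the 17 genes all probe sets agreed in the sign of the mean KD minus WT difference, and in 8 of 17 in the sign of the mean hypoxia minus normoxia difference. The genotype values agreed in sign for every gene called in that term that had more than 1 probe set above the floor. They ran from 0.26 to 0.40 over 3 probe sets of SQLE, from 0.36 to 0.57 over 3 of HMGCS1, and were 0.46 and 0.49 for FDFT1 and 0.62 and 0.68 for TM7SF2. For STARD4 they ran from 0.19 to 0.42 over 4 probe sets. They were 0.38 and 0.59 for EBP and 0.19 and 0.32 for MSMO1.

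INSIG1 was less even. Its dimmer probe set read 151, 155, 153 and 163, with a mean KD minus WT difference of 0.06, against 0.46 in the brighter. For LBR the dimmer probe set read 71.3, 63.6, 81.3 and 51.0 (-0.33, against -0.55). The 3 probe sets of CYP51A1 gave 0.23, 0.45 and 0.51, so the brightest, which stands for the gene, gave the smallest difference.

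In a fit with each of 16936 probe sets as its own row, 20 of the 49 rose in the genotype term (4.17% of all probe sets) and 1, of LBR, fell (4.3% of all probe sets). These included all 3 probe sets of CYP51A1 (adjusted p from 0.0053 to 0.029) and the 1 of NSDHL (adjusted p = 0.044), genes that were not called before. In the oxygen term 8 of the 49 fell (4.72% of all probe sets), 3 of them of SQLE and 2 of TM7SF2, and 2 rose (5.04% of all probe sets). The dimmer probe sets of MSMO1, INSIG1 and LBR were not called for genotype (adjusted p = 0.219, 0.831 and 0.313 by limma). Nor were the dimmest of HMGCS1 (adjusted p = 0.121) and the dimmer ones of STARD4. The dimmer probe set of EBP was not called for oxygen (-0.22, adjusted p = 0.119). Probe sets of a gene share RNA and often target sequence, so they are not replicates of a condition.

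**Figure D4:**
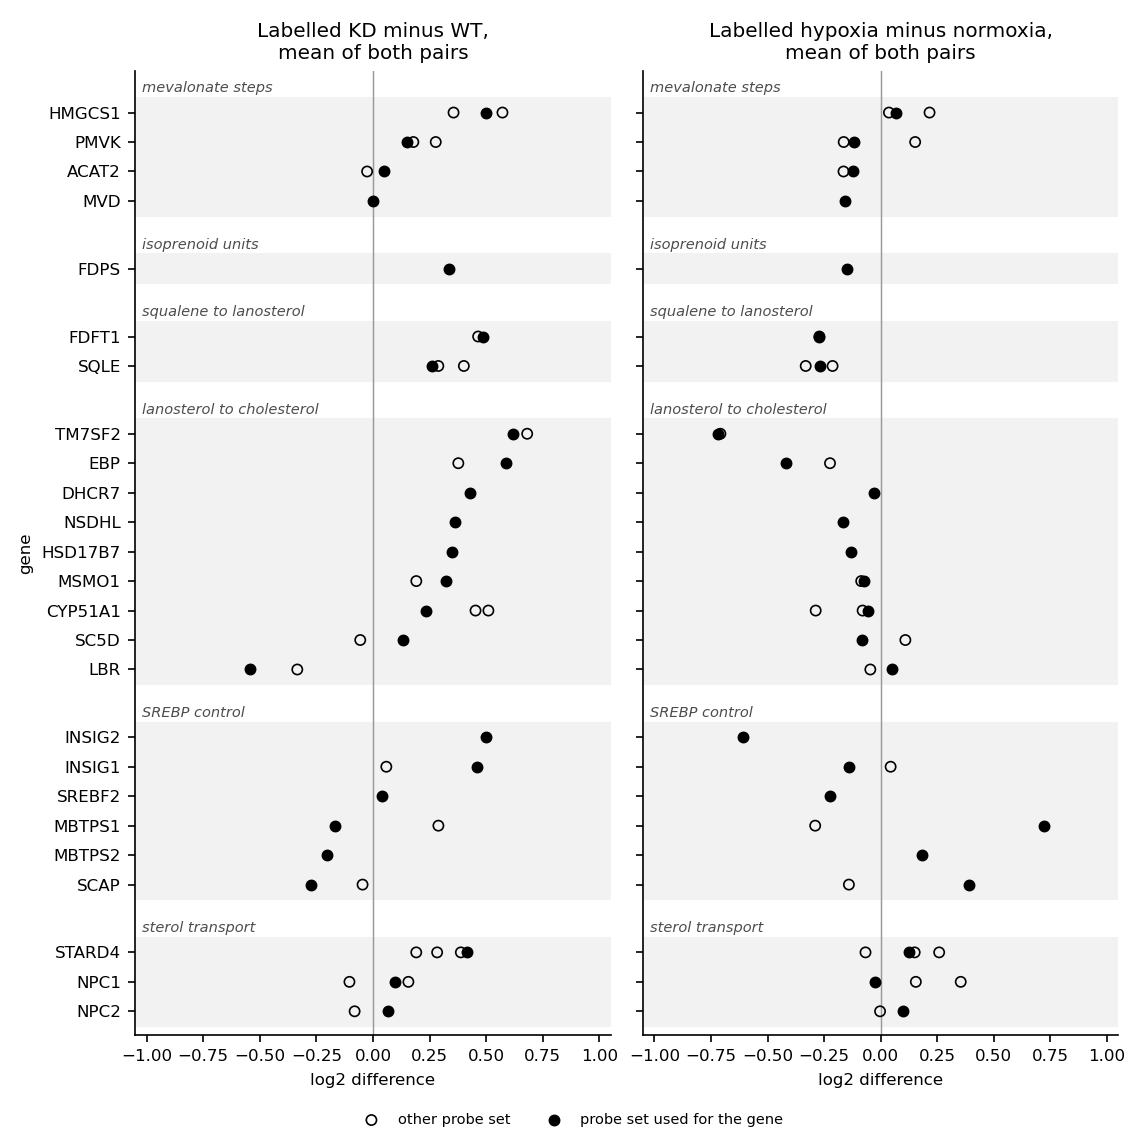
Mean labelled KD minus WT difference (left) and mean labelled hypoxia minus normoxia difference (right), in log2 units, for each of the 49 probe sets above the floor, by gene. Filled points are the probe set that stands for the gene and open points its other probe sets. On the left the points of the enzymes from FDPS to CYP51A1 are all above 0, and on the right the 2 points of MBTPS1 lie at 0.72 and -0.29.

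The isoprenoid branch takes farnesyl units to prenylated proteins, dolichol and ubiquinone. Of its 8 tested genes, 1 rose and 1 fell in the genotype term (2.94% and 2.43% of all genes tested). With 8 genes a single call is a large share, so the counts are not compared. The median genotype term of the branch was -0.06 (all genes tested, -0.01). The difference from the sterol enzymes was not tested. GGPS1, which makes geranylgeranyl diphosphate, read 217, 357, 210 and 310 and rose by 0.61 (SE 0.11, adjusted p = 0.018). PGGT1B, a subunit of the transferase that attaches the geranylgeranyl group to proteins, read 171, 108, 286 and 134 and fell by 0.80 (SE 0.14, adjusted p = 0.016). In the oxygen term 1 of the 8 fell (4.17% of all genes tested). COQ2, an enzyme of ubiquinone synthesis, read 2588, 2379, 1487 and 1420 and fell by 0.77 (SE 0.07, adjusted p = 4.1e-04).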

How the data were processed

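RNA from 4 MDCKII cultures was labelled as biotinylated cRNA from 100 ng of total RNA, per the labels' protocols, and hybridised to Affymetrix arrays. The authors deposited 1 linear intensity for each probe set and array. The software, background correction and scaling behind it: not given in the sources used here. Values were used as log2(intensity + 16). Of 42924 probe sets, 29254 carry 1 gene symbol, 439 several and 13231 none; those with several were left out, 1 of them listing a cholesterol gene. Among the 56 probe sets described, 55 have the same symbol in the RefSeq gene table, matched by gene ID. The probe set of highest mean log2 value stands for its gene, which is kept if any array reaches the median of all log2 values, 5.96 (intensity 46.3). limma 3.58.1 in R 4.3.3 fitted genotype and oxygen labels additively over the 4 arrays (eBayes with intensity trend, 1 residual and 8.11 prior degrees of freedom), two-sided, with Benjamini-Hochberg adjustment at 0.05. The fit was tested on simulated data with planted genotype effects of 2-fold or more, larger than those of the 25 genes. It therefore gives no check of calls of their size. The number of arrays limits the precision. Genes, lists and the log2 difference of 0.322 (log2 of the fold threshold) used as a threshold were chosen with earlier results of these data known. Any of the 28 genes could be named, and genes of other lists only where called. The alternatives were 3 scalings, 2 pseudocounts, the median over probe sets, 3 floors, 2 variance priors, a fit by probe set, and stricter thresholds. Figures were drawn with matplotlib 3.10.9 in Python 3.11.15.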

Additional observations from a re-analysis of the deposited data

Results flagged for a closer look

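With 1 array per group, a gene is listed here where the difference between labels had opposite signs in the 2 pairs of arrays that can show it. None of these differences was tested, and the shares over all genes tested are not matched for intensity. For labelled KD minus WT, 4 of the 25 tested genes had opposite signs in normoxia and hypoxia (33.4% of all genes tested). PMVK was at -0.06 in normoxia and 0.37 in hypoxia, a difference of 0.43. MVD was at 0.09 and -0.09, a difference of -0.17. SREBF2 was at 0.09 and 0.00, a difference of -0.089. ACAT2 was at -0.01 and 0.11, a difference of 0.12. For labelled hypoxia minus normoxia, 3 of the 25 had opposite signs in WT and KD cells (33.7% of all genes tested). PMVK was at -0.33 in WT and 0.10 in KD cells, a difference of -0.43. NPC1 was at -0.06 and 0.01, a difference of -0.070. LBR was at 0.11 and -0.02, a difference of 0.13. The other PMVK probe sets gave a mean labelled KD minus WT difference of 0.18 and 0.28. For hypoxia minus normoxia the second PMVK probe set was at -0.34 in WT and 0.01 in KD cells. The third was at 0.16 in WT and 0.14 in KD cells, and at 0.29 and 0.27 for KD minus WT in normoxia and hypoxia. For KD minus WT the second was at 0.0031 in normoxia and 0.35 in hypoxia. Opposite signs were thus absent from the third in both comparisons, and from the second for KD minus WT.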

How the results depend on the processing

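The counts of genes called rest on the variance prior. The genotype term called 11 of 25 genes and the oxygen term 6. Without the intensity trend limma called 0 and 0 (all genes, 0 and 7 of 9834). At an unadjusted p under 0.05 there were then 15 and 7 of 25 (all genes, 1733 and 1835 of 9834). Without a floor limma called 0 and 0 of 27 (all genes, 0 and 77 of 15115). Unadjusted there were then 16 and 9 (all genes, 2112 and 2300 of 15115). With each probe set as a row the calls were 21 and 10 of 49 (1435 and 1653 of all 16936 probe sets). At an adjusted p of 0.01 the genotype count was 4 and the oxygen count 4 (all genes, 105 and 350 of 9834). Under the other alternatives the genotype count lay between 10 and 14 and the oxygen count between 5 and 7, of 23 to 26 tested. The calls over all genes there ran from 466 of 8283 to 1311 of 9850 for genotype. For oxygen they ran from 823 of 8283 to 1517 of 9850. Over all genes the calls ran from 0 to 1311 for genotype (528 as reported) and from 7 to 1517 for oxygen (874 as reported), the highest with quantile normalization. None of the 17 called terms changed sign under the 12 alternatives that gave each gene 1 value. The fit by probe set gave no such value. In it the second probe sets of MBTPS1 and SCAP had oxygen terms of -0.29 and -0.14, opposite in sign to the called ones. The 9 genes higher by at least 0.322 in both KD minus WT pairs numbered 7 to 11 under the other alternatives, and 0 at a threshold of 1.5-fold. Median differences ranged from 0.21 to 0.27 for KD minus WT in normoxia, 0.22 to 0.34 in hypoxia, -0.13 to -0.06 for hypoxia minus normoxia in WT, and -0.07 to -0.02 in KD cells. The difference of the responses ranged from -0.03 to 0.03. With 1 value per gene, the signs that turned were all of terms not called. They were MVD genotype with a pseudocount of 1 (-0.00014) and, with the median over probe sets, genotype for MBTPS1 (0.059), NPC1 (-0.104) and NPC2 (-0.0080) and oxygen for NPC1 (0.16) and SC5D (0.013). For the last 5, the probe sets of the gene differed in sign. The largest shift of an all-gene median difference was 0.032, with median centring. The additive fit already compares genotypes within each oxygen label and oxygen labels within each genotype. No paired analysis was possible beyond it because the labels give groups of 1 array and no shared replicate numbers. With 1 residual degree of freedom no array could be left out of the fit.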

Other observations

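Other genes of sterol and lipid handling were mostly not called. Over all 9834 genes tested, 2.94% rose and 2.43% fell in the genotype term, and 4.72% rose and 4.17% fell in the oxygen term. At an unadjusted p under 0.05 by limma, 1059 of these were higher and 1137 lower for genotype. For oxygen 1284 were higher and 1051 lower. Of 8 tested genes of sterol efflux, esterification, hydrolysis and oxysterols, 0 were called in the limma genotype term (1 higher and 3 lower at an unadjusted p under 0.05), and 1 rose in the oxygen term. That gene was MYLIP, an E3 ligase induced by the sterol-sensing LXR receptors, which read 299 in WT normoxia, 227 in KD normoxia, 428 in WT hypoxia and 346 in KD hypoxia (0.53, SE 0.10, adjusted p = 0.014). Its genotype term was -0.33 (adjusted p = 0.099). Of 8 tested other regulators of SREBP and sterol response genes, limma called 0 in either term (1 higher and 1 lower for genotype, 1 higher and 0 lower for oxygen, at an unadjusted p under 0.05).

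Of 8 tested fatty acid genes of the SREBP family, 1 rose in the genotype term (2.94% of all genes tested). In the oxygen term 0 were called (4.72% of all genes tested rose and 4.17% fell). At an unadjusted p under 0.05 by limma, 0 were higher and 3 lower for oxygen (1284 and 1051 of all 9834 genes tested). The gene that rose was ACLY, which makes the cytosolic acetyl-CoA used for both fatty acids and sterols. It read 9335 in WT normoxia, 10815 in KD normoxia, 8549 in WT hypoxia and 10628 in KD hypoxia, with both KD arrays above both WT arrays (0.26, SE 0.05, adjusted p = 0.017). The median genotype term of these 8 genes was 0.14, against 0.33 for the 16 tested sterol synthesis enzymes and -0.01 for all genes tested. This difference between lists was not tested.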
